A study of Mus musculus with 12 samples.

Results

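Mouse embryonic fibroblasts lacking Carm1 were compared with wild-type fibroblasts after 18 h without glucose, by RNA sequencing of 2 knockout and 2 wild-type libraries. These 4 libraries were chosen from the 12 of the series by genotype and medium, with earlier results of these data known, and 8 of the 12 hold RNA. They were fitted alone because the replicates of both starved pairs lie close together, while another pair of the series is far wider. The other 4 RNA libraries come from the same genotypes in rich medium, 2 each, and are used here only for levels and for the test of whether a genotype difference changed with the medium. All cells were C57BL/6 embryonic fibroblasts at passages 3 to 5. The starved cells were rinsed and held in glucose-free DMEM with 10% dialyzed serum, while the rich medium was DMEM with 10% serum. The labels do not say whether the replicates came from separate embryos or cultures, or how many embryos or lines stand behind each genotype, so a p-value reflects the spread among these libraries alone, which may be technical. The sources used here also do not say how Carm1 was deleted.

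CARM1 is an arginine methyltransferase that adds methyl groups to histone H3 and to other nuclear proteins, and it acts as a coactivator for several transcription factors. In fibroblasts short of glucose the kinase AMPK is active, and the title of the series places CARM1 in the epigenetic control of starvation-induced autophagy. Autophagy wraps parts of the cytoplasm in a membrane and delivers them to the lysosome, where hydrolases break them down. The MiT/TFE transcription factors TFEB, TFE3 and MITF turn on many lysosomal and autophagy genes through E-box sequences in their promoters. The comparison asks which genes of these and other pathways differ between the genotypes while glucose is absent.

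The 4 starved libraries held between 24312467 and 28155438 counts. Replicates lay close together: levels are given in CPM, counts scaled to library size, and among 9286 genes at 10 CPM or more, 2 genes in the wild-type pair and 1 in the knockout pair differed by over 2-fold between replicates. Of 13396 genes tested with edgeR's quasi-likelihood test on these 4 libraries, 11038 (82.4%) passed a Benjamini-Hochberg adjusted p of 0.05, 5442 higher (40.6%) and 5596 lower (41.8%) in knockout. With so many genes past the test, a change is counted here only where the gene also differed by at least 2-fold. By that rule 5312 genes (39.7%) changed, 2785 (20.8%) higher and 2527 (18.9%) lower in knockout, and 1086 and 872 of the called genes were over 8-fold apart. The median log2 fold change of all genes was -0.02. In the text below, a log2 fold change is always knockout over wild type in the starved libraries, and each group has n = 2. Every count of list members below is to be read beside the shares of all genes. These are 20.8% higher and 18.9% lower at 2-fold, and 40.6% and 41.8% without the fold limit.

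Carm1 itself was read at 173 and 162 CPM in the wild-type libraries and at 53.2 and 57.9 CPM in the knockout libraries. The groups did not overlap, and the log2 fold change was -1.59 ± 0.067 (SE; adjusted p = 1.33e-31). The remaining knockout counts were 3.01-fold below wild type rather than at 0, and since the deleted exons are not given, reads from the rest of the transcript cannot be told apart from intact message.

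Genes of the X chromosome's dosage control also separated the genotypes, and these values stand beside every result below. Xist, whose RNA silences one X chromosome in female cells, was read at 796 and 672 CPM in wild type and at 0.238 and 0 CPM in knockout. Its overlapping antisense gene Tsix had 33.1 and 23.7 CPM in wild type and none in knockout, and reads from the pair cannot be told apart without strand. Of 8 tested genes of X inactivation and escape from it, 2 were at least 2-fold lower, Xist and Tsix. No starved library had a count for the Y-chromosome genes Uty, Kdm5d, Eif2s3y or Ddx3y. Whether differences below follow the loss of Carm1 or other differences between the 2 cell populations cannot be told apart in this design.

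The 10 genes with the largest rises and the 10 with the largest falls, taken among those at 5 CPM or more in both libraries of a group and with a named symbol, were nearly all present in one genotype and absent in the other. Prl2c2, a prolactin-family hormone of placenta and growing fibroblasts, had 0 counts in wild type and 387 and 312 CPM in knockout, at least 6399-fold higher against the limit of 3 counts over the pair. The sequences of Prl2c2, Prl2c3 and Prl2c4 are nearly the same, so the split of reads among these 3 is uncertain. Gpr149, an orphan receptor, was at least 3904-fold higher, and Ifi202b, an interferon-inducible DNA-binding protein, was at least 2554-fold higher. The remaining rises were Cd200, Pde3b, Tspan18, Angptl4 and Lce1g, which ranged from at least 1070.2-fold to at least 2301-fold. Among the falls, Gpnmb, a transmembrane glycoprotein, went from 108 and 108 CPM to 0, at least 1753-fold lower. The imprinted retrotransposon-derived gene Peg10 went from 98.5 and 92.4 CPM to 0, and its imprinted neighbour Sgce from 31.2 and 32.8 CPM to 0. Epb4.1, Cachd1, Rnpepl1, Pax3, Sh3bgrl2, Pmaip1 and Gatm were also at 0 in both knockout libraries, at least 491-fold to at least 1448-fold lower.

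Several genes that start autophagosome formation were lower in knockout. Of 14 members of the initiation and PI3-kinase complexes, 5 were at least 2-fold lower and 1 was higher, with a median log2 fold change of -0.61 beside -0.02 for all genes and against a background of 18.9% lower and 20.8% higher. Atg14, the subunit that directs the PI3-kinase complex to autophagy, stood at 46.2 and 46.1 CPM in wild type and at 8.12 and 6.797 CPM in knockout. Its log2 fold change was -2.63 ± 0.11 (adjusted p = 9.56e-32). Atg13, the scaffold of the starting kinase, fell from 112 and 113 CPM to 18.4 and 19.3 CPM, a log2 fold change of -2.58 ± 0.077 (adjusted p = 8.43e-40). Ulk1, the starting kinase, fell from 79.5 and 75.7 CPM to 18.6 and 20.1 CPM, a log2 fold change of -2.004 ± 0.082. The remaining ones were 9430023L20Rik, the symbol used for Atg101 in the table, at -1.44, and Pik3c3, the lipid kinase VPS34, at -1.08. In none of these 5 did the groups overlap, as held for 45.9% of all genes in that direction and 44.4% in the other.

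Among the other members of the initiation list, Becn1, the core of the PI3-kinase complex, went from 134 and 132 CPM to 97.9 and 98.4 CPM, a log2 fold change of -0.44. Rb1cc1, the large scaffold FIP200, had a log2 fold change of -0.21, a call that was lost in the fit of all 8 libraries, and Ulk2 was the other member past the test that was higher, at 0.41. Bcl2, whose protein binds Beclin 1 and holds it inactive, was higher, from 4.01 and 3.48 CPM to 15.6 and 13.04 CPM (log2 fold change 1.94 ± 0.16). Nrbf2 did not pass the test (adjusted p = 0.575).

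In rich medium the genotypes were closer at Atg14, Atg13 and Ulk1. Of the 14 members of the initiation list, 4 lay higher and 7 lower in knockout there without overlap, beside 33.0% and 36.8% of all genes. Pik3c3 had the opposite order there, at 24.0 and 23.9 CPM in wild type and 34.4 and 30.2 CPM in knockout. Atg14 read 12.2 and 9.01 CPM in the rich wild-type libraries and 6.59 and 7.68 CPM in the rich knockout libraries. Ulk1 read 45.4 and 45.3 CPM in wild type and 28.3 and 46.3 CPM in knockout there, and the groups overlapped. In a fit of all 8 RNA libraries, 13.3% of 13882 genes passed the test of a different genotype effect after starvation than in rich medium, 7.42% higher and 5.91% lower. The genotype effect on Atg14 was lower after starvation by -2.10 ± 0.30 on the log2 scale (adjusted p = 0.006496), that on Atg13 by -2.14 ± 0.34 (adjusted p = 0.00902) and that on Ulk1 by -1.76 ± 0.33 (adjusted p = 0.01599). This test was read for the autophagy genes after their values were seen, and the rich knockout pair it uses is wider than the others: 1030 genes higher and 820 lower became 3735 and 3305 without rich knockout replicate 1, and 4575 and 3445 without replicate 2. For Atg14, Atg13 and Ulk1 in turn the differences were -2.18, -2.42 and -2.04 without replicate 1. Without replicate 2 they were -1.95, -1.65 and -1.32. Those fits hold 1 rich knockout library, which lends no spread of its own, so whether a gene passes there says little. With terms for the replicate number in all 8 libraries, the 3 differences passed at adjusted p = 0.0321, 0.0270 and 0.0419. The difference for 9430023L20Rik did not pass in the fit of all 8 libraries (adjusted p = 0.238). The plot of autophagy and lysosome genes by library shows all 8 values for each.

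**Figure D1:**
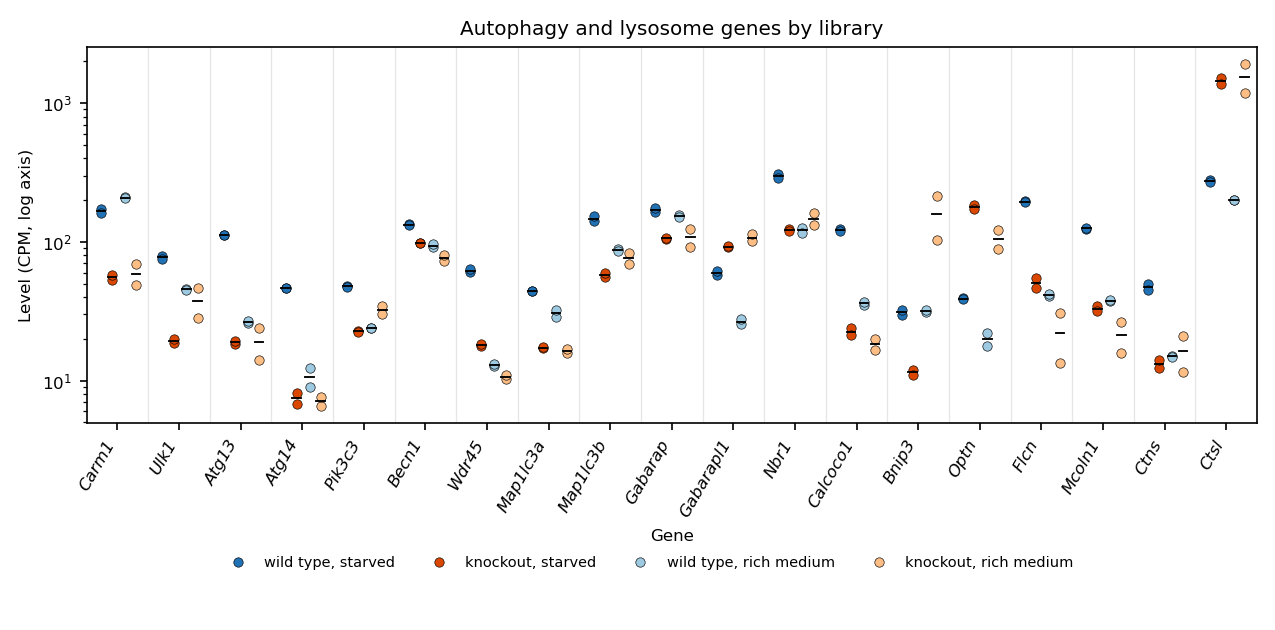
Level of Carm1 and of 18 autophagy and lysosome genes in CPM on a log axis, with a point for each library and a bar at the mean of each pair, for starved wild type (dark blue), starved knockout (dark orange), rich wild type (light blue) and rich knockout (light orange). Atg14, Atg13, Ulk1, Wdr45, Calcoco1, Flcn and Mcoln1 lie highest in the starved wild-type libraries, while Ctsl and Optn lie higher in both knockout pairs.

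Downstream of initiation the list on WIPI, ATG9, DRAM and TP53INP genes had 3 of 14 members lower and 2 higher, with a median of -0.22. The shares of all genes were 18.9% and 20.8%. Wdr45, a WIPI protein that reads the PI3-kinase product on the forming membrane, fell from 60.8 and 63.4 CPM to 17.8 and 18.4 CPM (log2 fold change -1.78 ± 0.086). Tmem41b, a lipid scramblase of the endoplasmic reticulum, was at -1.63, and Atg2a, which transfers lipid to the forming membrane, at -1.29. Atg9b, a membrane scramblase, rose from 2.28 and 2.42 CPM to 18.97 and 18.7 CPM, and Dram1, a lysosomal membrane protein, rose with a log2 fold change of 1.57. Its paralog Atg9a, the broadly expressed form, was at -0.91, so the 2 ATG9 genes moved in opposite directions.

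The conjugation enzymes and the ATG8 proteins they attach to membranes gave 2 of 16 members lower and 1 higher, both shares below the background, with a median of -0.12. The lower members were the LC3 genes Map1lc3b, from 141 and 152 CPM to 55.9 and 59.8 CPM (log2 fold change -1.34 ± 0.067), and Map1lc3a, at -1.35. Atg7, the E1-like enzyme that activates ATG8 proteins, was the higher one, from 24.7 and 24.99 CPM to 53.9 and 57.4 CPM. The GABARAP branch of the ATG8 family was split, with Gabarap at -0.69, Gabarapl2 at -0.51 and Gabarapl1 at 0.62. The call of Gabarapl2 was lost in the fit of all 8 libraries. Atg5 had 37.9 and 36.9 CPM in wild type and 33.9 and 36.03 CPM in knockout and did not pass the test (adjusted p = 0.287).

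Among 15 cargo receptors, which tie damaged organelles or proteins to the autophagosome, 5 were lower and 1 was higher, and the median was 0.0036. Calcoco1, a receptor for the endoplasmic reticulum, fell from 124 and 119 CPM to 23.8 and 21.4 CPM (log2 fold change -2.43 ± 0.076). Nbr1, a receptor for protein aggregates, fell from 307 and 289 CPM to 124 and 119 CPM. The others lower were Bnip3 at -1.44 and Pink1 at -1.42, both of mitophagy, and Ncoa4, the ferritin receptor, at -1.13. Bnip3 behaved differently in rich medium, where the knockout libraries held 214 and 103 CPM and the wild-type libraries 31.1 and 32.1 CPM, and its genotype effect differed between the media by -3.78 ± 0.43 (adjusted p = 0.003103). Optn, a receptor for ubiquitin-coated cargo, was higher in knockout, from 39.5 and 38.6 CPM to 185 and 171 CPM. The best-known receptor gene, Sqstm1 (p62), read 783 and 803 CPM and 821 and 802 CPM and did not pass the test (adjusted p = 0.671).

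Lysosomal genes were more often lower than higher. Of 42 hydrolases and membrane proteins, 12 were at least 2-fold lower and 3 higher, and 28 and 7 passed the test without the fold limit, beside 41.8% and 40.6% of all genes. The median was -0.50. In rich medium 24 of the 42 lay lower and 10 higher in knockout without overlap, beside 36.8% and 33.0% of all genes. Gm2a, the activator protein for ganglioside breakdown, fell from 27.9 and 31.6 CPM to 2.81 and 2.46 CPM (log2 fold change -3.49 ± 0.15). Mcoln1, the calcium channel of the lysosomal membrane, fell from 123 and 127 CPM to 34.5 and 31.5 CPM (-1.92 ± 0.072, adjusted p = 1.54e-34). The sialidase Neu1 was at -1.92, the cystine exporter Ctns at -1.84 and the iduronidase Idua at -1.99. Higher members were the battenin gene Cln3 at 1.97, the galactosidase Gla at 1.64 and Naglu, an enzyme of heparan sulfate breakdown, at 1.54. The abundant membrane proteins Lamp1 and Lamp2 did not pass the test, at -0.095 and 0.033, although the median transcript of Lamp2 gave -0.356 and passed.

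All 16 subunits and accessory proteins of the proton pump that acidifies the lysosome were tested. Without the fold limit 13 were lower and 1 was higher, beside 41.8% and 40.6% of all genes. The shifts were small: only Atp6v1f reached 2-fold lower, at -1.07, and the median was -0.49. In rich medium 8 of the 16 lay lower and 3 higher in knockout without overlap, beside 36.8% and 33.0% of all genes. Atp6v0d1 read 116 and 115 CPM in wild type and 58.1 and 60.03 CPM in knockout, without overlap. Atp6v1g1 went the other way, from 113 and 127 CPM to 229 and 227 CPM (0.93). Of 9 tested cathepsins, the lysosomal proteases, 2 were higher and 2 lower, close to the 20.8% and 18.9% of all genes. Without the fold limit 3 were higher and 5 lower, and the median was -0.35. Ctsl, cathepsin L, rose from 277 and 271 CPM to 1514 and 1378 CPM (log2 fold change 2.40 ± 0.077). The summed level of the 9 genes, Ctsl included, was 1622 and 1659 CPM in wild type and 2677 and 2551 CPM in knockout. Ctsl rose by more than this sum, so the other cathepsins together were lower in knockout. Ctsb, cathepsin B, was at -0.45, and Ctsd, cathepsin D, did not pass the test (adjusted p = 0.971).

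The genes that control the MiT/TFE factors changed less as a group, 1 of 15 higher and 1 lower. Tfeb was at 7.39 and 6.62 CPM in wild type and 9.23 and 8.45 CPM in knockout, a log2 fold change of 0.34 that passed the test narrowly (adjusted p = 0.04201). Tfe3 was at 0.43. The call of Tfeb was lost with DESeq2 and with limma-voom, and both calls were lost in the fit of all 8 libraries. Mitf rose from 4.01 and 4.98 CPM to 25.6 and 21.7 CPM (2.39 ± 0.14). Flcn, folliculin, the partner of the Rag GTPases that keeps these factors in the cytoplasm, fell from 196 and 194 CPM to 46.7 and 54.8 CPM (-1.94 ± 0.069).

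Mcoln1 is printed here because its promoter carries the E-box CACGTG, the letters these factors read, more than once. The sequence is the 250 bases before the start on the RefSeq record of GRCm38.p6, at chr8:3500269-3500518 on the plus strand, with the E-boxes in capitals beginning 71 and 45 bases before the start.
Mcoln1: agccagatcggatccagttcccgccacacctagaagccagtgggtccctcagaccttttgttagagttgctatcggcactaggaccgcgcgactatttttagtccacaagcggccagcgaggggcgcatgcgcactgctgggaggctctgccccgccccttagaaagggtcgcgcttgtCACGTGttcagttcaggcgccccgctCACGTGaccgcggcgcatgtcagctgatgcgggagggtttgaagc
The same letters, read on both strands over 300 bases around the start, occur in 7.15% of 32851 mouse promoters in that table. Counted by gene, as in the next sentence, they occur in 8.09% of genes. Among 9 of the 12 lower lysosomal genes with a promoter in the table only Mcoln1 had them, and among the 3 higher ones Gla, Naglu and Cln3 all did. The match is a description of the letters and not of binding.

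AMPK is made of a catalytic, a scaffold and a sensing subunit, and its genes moved unevenly. Prkaa1, a catalytic subunit, was at 0.28, a call lost in the fit of all 8 libraries. Prkaa2, the other catalytic subunit, had 352 counts over the wild-type pair and 2 over the knockout pair, a ratio of 157-fold with a 95% exact interval of 43.1 to 1300.2. Prkab2, a scaffold subunit, rose from 5.23 and 6.08 CPM to 29.2 and 31.99 CPM (2.43). Skp2, the receptor of the ubiquitin ligase that the AMPK and FOXO axis holds down, read 53.1 and 45.3 CPM in wild type and 29.5 and 28.5 CPM in knockout (-0.76 ± 0.085), short of 2-fold. Foxo1 was at -1.12, Foxo4 at -0.97 and Foxo3, the FOXO factor most often tied to autophagy genes, at 0.74. In all, 1 of 15 members was higher and 2 were lower by 2-fold.

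Of the other arginine methyltransferases, Prmt6 rose from 15.4 and 17.5 CPM to 57.9 and 48.6 CPM (1.69 ± 0.095) and Prmt2 fell from 60.6 and 60.01 CPM to 18.9 and 20.2 CPM (-1.62 ± 0.085). Prmt1, which makes most asymmetric dimethylarginine, was at 0.25, a call lost in the fit of all 8 libraries, and Prmt5 and Prmt7 did not pass the test. Of the coactivators that work with CARM1, Ncoa2 was just past 2-fold higher, at 1.03. Ncoa1 was at 0.96 and Crebbp at 0.61, while Ncoa3 and Ep300 did not pass the test. With Carm1 counted, 2 of the 16 members were higher and 2 lower.

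The integrated stress response, which ATF4 runs when amino acids or glucose are short, had 6 of 34 members higher and 7 lower, shares close to the 20.8% and 18.9% of all genes. Without the fold limit 9 were higher and 19 lower, beside 40.6% and 41.8%, and the median was -0.45. Atf4 itself read 721 and 816 CPM and 752 and 768 CPM and did not pass the test (adjusted p = 0.842). Atf3, a repressor induced by stress, fell from 85.6 and 93.5 CPM to 2.06 and 2.04 CPM, and the arginine transporter Slc7a3 fell from 90.4 and 93.5 CPM to 0.0792 and 0.297 CPM (-8.92). In rich medium Slc7a3 was at 8.296 and 6.51 CPM in wild type and at 0.249 and 0.227 CPM in knockout. The cystine importer Slc7a11 rose from 8.64 and 10.3 CPM to 80.4 and 83.99 CPM. The lipoprotein receptor Vldlr was at 2.63 and the cysteine-making enzyme Cth at 1.58.

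Genes of protein folding in the endoplasmic reticulum were mostly lower. Of 25 members 10 were at least 2-fold lower, 18 were lower and 4 higher without the fold limit, and the median was -0.61. Dnajc3, a chaperone that also restrains the kinase PERK, fell from 326 and 313 CPM to 46.5 and 46.3 CPM (-2.78 ± 0.069). Syvn1, the ubiquitin ligase HRD1, fell from 375 and 366 CPM to 85.8 and 91.3 CPM. Herpud1, part of the same degradation complex, was at -1.36, and the chaperones Manf, Sdf2l1 and Hyou1 were at -1.43, -1.31 and -1.25. Herpud1 read 59.6 and 51.7 CPM in rich wild-type libraries and 42.8 and 55.3 CPM in rich knockout libraries, which overlap.

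Cytosolic chaperones and tRNA synthetases lay near the background. Of 16 heat shock genes 4 were lower and 2 higher, beside 18.9% and 20.8% of all genes. The inducible Hspa1a fell from 115 and 108 CPM to 13.7 and 12.3 CPM, and its near-identical copy Hspa1b, between which reads can be split either way, fell from 162 and 154 CPM to 27.7 and 27.9 CPM. The small heat shock protein Hspb1 fell from 16.03 and 18.9 CPM to 0.356 and 0 CPM. Among 20 synthetases 4 were at least 2-fold higher, close to the share of all genes, and 7 were higher and 7 lower without the fold limit, the lower ones all by less than 2-fold. The widest rise was that of Farsb, a subunit for phenylalanine, from 30.3 and 27.3 CPM to 139 and 139.7 CPM. Rars was at 1.38, Dars at 1.299 and Wars at 1.09.

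Inflammatory genes gave some of the widest separations. Of 17 NF-kB subunits and feedback inhibitors 12 were higher, and 15 without the fold limit, with a median of 1.55. Tnfaip3, the ubiquitin-editing inhibitor A20, rose from 2.55 and 2.83 CPM to 153 and 159.7 CPM (5.85 ± 0.0999). Nfkbia, the inhibitor that holds NF-kB in the cytoplasm, rose from 26.8 and 28.6 CPM to 159.8 and 162 CPM (2.54 ± 0.071). The atypical inhibitors Nfkbiz and Bcl3 were both at 4.33, Traf1 was at 4.64 and Nfkbie at 3.57. In rich medium Tnfaip3 was the other way round, at 40.4 and 42.8 CPM in wild type and 20.6 and 24.2 CPM in knockout.

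Of 19 chemokines, which draw leukocytes to tissue, 13 were tested, and 9 were higher and 4 lower. The median log2 fold change was 6.95, or 4.34 with genes at 3 counts or fewer in a group set to their bound. Ccl2, which attracts monocytes, rose from 1.57 and 1.84 CPM to 422 and 398 CPM (7.90 ± 0.11). Ccl7, its neighbour in function, rose from 0.157 and 0.273 CPM to 289 and 248 CPM, and Cxcl1, which attracts neutrophils, from 1.14 and 1.06 CPM to 195 and 196 CPM. Ccl9 was at 8.87, and Cxcl5, with 0 wild-type counts, was at least 211-fold higher. Ccl5 was lower, from 16.7 and 16.9 CPM to 0.0792 and 0.255 CPM. Ccl2 in rich medium was at 62.1 and 63.5 CPM in wild type and 178 and 166 CPM in knockout, so the wild-type level there lay far above the starved one.

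Acute phase, cytokine and prostaglandin genes rose: 15 of 16 tested members were at least 2-fold higher, with a median of 5.83. Csf2, the growth factor GM-CSF, had 0 wild-type counts and 51.1 and 45.9 CPM in knockout, at least 887-fold higher. Ptges, which makes prostaglandin E2, rose from 0.0786 and 0.0683 CPM to 187 and 188 CPM, and the cyclooxygenase Ptgs1 from 3.14 and 2.87 CPM to 612 and 612 CPM. The iron-binding protein Lcn2 was at 9.38, the acute phase protein Saa3 at 7.65 and the alarmin Il33 at 7.46. Leukocyte markers moved beside these: of 14, 6 were tested, and 5 were higher and Cd68 was lower. The 6 summed to 7.78 and 7.72 CPM in wild type and 25.5 and 28.3 CPM in knockout. Cd14, a receptor for bacterial lipopolysaccharide, had the highest knockout level of the 6, at 2.87 and 2.49 CPM in wild type and 17.8 and 19.8 CPM in knockout. Ptprc, the leukocyte surface protein CD45, had 0 wild-type and 35 knockout counts over each pair, the integrin Itgam 0 and 87 and the lysozyme Lyz2 2 and 96. The receptor Csf1r was at 0 and 0.137 CPM in wild type and 2.06 and 2.21 CPM in knockout, and Emr1, Tyrobp, Laptm5 and Cd3e had 0 counts in all 4 libraries. The part of such cells in these results was not tested.

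The promoters of Cxcl1 and Nfkbia are shown because each holds the NF-kB motif, in capitals, in the 250 bases before the start (GRCm38.p6, RefSeq). Cxcl1 lies at chr5:90890995-90891244 on the plus strand, with the match 71 bases before the start. Nfkbia lies at chr12:55492648-55492897 on the minus strand, with the match 29 bases before the start and on the opposite strand.
Cxcl1: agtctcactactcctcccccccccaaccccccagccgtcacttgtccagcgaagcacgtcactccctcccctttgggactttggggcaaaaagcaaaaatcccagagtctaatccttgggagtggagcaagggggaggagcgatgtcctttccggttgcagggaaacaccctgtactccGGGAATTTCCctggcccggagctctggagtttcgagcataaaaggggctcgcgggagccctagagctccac
Nfkbia: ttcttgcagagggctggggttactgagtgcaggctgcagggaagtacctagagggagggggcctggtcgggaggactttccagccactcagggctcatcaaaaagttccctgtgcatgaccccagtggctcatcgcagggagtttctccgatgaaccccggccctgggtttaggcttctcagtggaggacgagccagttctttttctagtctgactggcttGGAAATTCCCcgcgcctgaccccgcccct
A match to this motif occurs in 0.411% of all promoters in the table and, counted by gene as below, in 0.466% of genes. It occurred in 2 of 6 higher chemokine genes with a promoter there, Cxcl1 and Cxcl3, in 1 of 8 higher NF-kB genes and in 2 of 15 higher cytokine genes, Il6 and Csf1.

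Genes switched on by growth signals were higher. Of 21 immediate early factors 16 were higher and 2 lower, with a median of 2.83, and of 16 DUSP and Sprouty genes, which damp MAP kinase signals, 15 were higher, with a median of 1.90. Egr1, a zinc-finger factor induced within minutes of growth factor addition, rose from 11.6 and 12.2 CPM to 168 and 162 CPM (3.79 ± 0.079). The AP-1 subunits Fosl1 and Fosl2 were at 4.87 and 4.19, and Fosl1 reached 508 and 473 CPM in knockout. Egr2 had 0 wild-type counts and was at least 251-fold higher. The MAP kinase phosphatase Dusp4 rose from 1.49 and 1.57 CPM to 105 and 119 CPM, Dusp5 from 2.28 and 2.32 CPM to 75.3 and 79.1 CPM and Dusp6 from 5.304 and 6.14 CPM to 53.5 and 52.98 CPM. Egr1 in rich medium was at 103 and 114 CPM in wild type and 81.1 and 74.6 CPM in knockout, the opposite order, while Dusp4 was higher in knockout there too, at 50.97 and 55.7 CPM against 0.984 and 1.701 CPM.

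**Figure D2:**
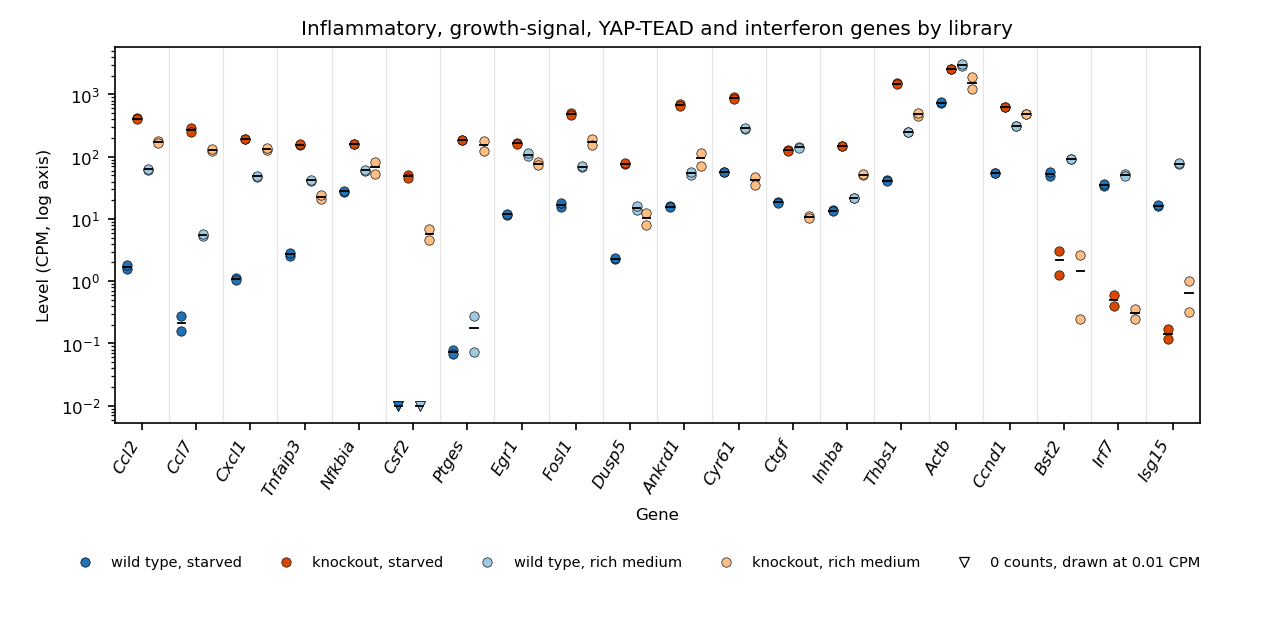
Level in CPM on a log axis of 20 inflammatory, growth-signal, YAP-TEAD and interferon genes, with a point for each library and a bar at the mean of each pair, coloured by group, and triangles for libraries with 0 counts. Most genes from Ccl2 to Ccnd1 lie lowest in the starved wild-type pair and highest in the starved knockout pair, and Bst2, Irf7 and Isg15 lie lower in knockout in both media.

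Targets of YAP and TEAD, which report cell stretch and density, were partly higher: 7 of 20 rose by at least 2-fold, 11 were higher and 6 lower without the fold limit, and the median was 0.66. Ankrd1, a muscle-type ankyrin repeat protein, rose from 16.1 and 15.6 CPM to 707 and 662 CPM (5.43 ± 0.084). Cyr61 and Ctgf, secreted matricellular proteins, rose from 56.8 and 57.4 CPM to 911 and 859 CPM and from 19.02 and 18.4 CPM to 129 and 123 CPM. The clotting initiator F3 was at 3.63, Tead4 at 1.59 and the receptor kinase Axl at 1.27. Cyr61 and Ctgf went the other way in rich medium: Ctgf was at 144 and 139.5 CPM in wild type and 11.3 and 10.5 CPM in knockout, and Cyr61 at 281 and 289 CPM and 47.7 and 35.4 CPM.

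The promoters of Ankrd1 and Cyr61 are shown for the TEAD letters GGAATG, printed in capitals on either strand. Both come from RefSeq's GRCm38.p6 record and lie on the minus strand. Ankrd1 spans chr19:36119845-36120094, with matches beginning 210 and 123 bases before the start. Cyr61 spans chr3:145649986-145650235, with a reverse match 103 bases before the start.
Ankrd1: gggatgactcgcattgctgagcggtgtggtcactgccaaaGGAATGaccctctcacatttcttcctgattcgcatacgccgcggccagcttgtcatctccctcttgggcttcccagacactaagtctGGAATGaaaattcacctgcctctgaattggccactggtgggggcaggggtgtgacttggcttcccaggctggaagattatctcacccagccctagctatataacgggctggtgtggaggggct
Cyr61: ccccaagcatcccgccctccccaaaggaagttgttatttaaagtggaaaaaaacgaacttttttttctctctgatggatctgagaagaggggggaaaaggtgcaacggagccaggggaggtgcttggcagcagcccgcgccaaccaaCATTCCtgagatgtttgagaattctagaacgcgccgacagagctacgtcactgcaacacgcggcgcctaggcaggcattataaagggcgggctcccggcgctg
These letters are common, at 14.7% of all promoters and 16.6% of genes, and 3 of the 5 higher YAP-TEAD genes with a promoter in the table held them.

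SRF-driven contractile genes and TGF-beta genes were also more often higher in starved cells. Of 23 tested SRF genes 11 were higher and 2 lower, with a median of 0.96. In rich medium 4 of these 23 lay higher and 16 lower in knockout without overlap, beside 33.0% and 36.8% of all genes. Actb, cytoplasmic actin, rose from 718 and 750.3 CPM to 2602 and 2593 CPM, although in rich medium it was at 2853 and 3081 CPM in wild type and 1230.4 and 1883 CPM in knockout. Acta2, smooth muscle actin, was at 1.80, the myosin kinase Mylk at 5.64 and calponin Cnn1 at -4.71. Of 22 TGF-beta genes 15 were higher and 2 lower, with a median of 1.504, and in rich medium 10 lay higher and 6 lower without overlap. The activin subunit Inhba rose from 13.99 and 13.3 CPM to 148 and 148 CPM (3.44 ± 0.078). The corepressor Tgif1 was at 2.86 and the BMP antagonist Grem1 at 2.46, while Bmp4 was lower, from 9.08 and 9.56 CPM to 0.238 and 0.935 CPM.

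Extracellular matrix genes moved in both directions. Of 21 tested collagens 7 were higher and 9 lower. The basement membrane chains Col4a1 and Col4a2, a head-to-head gene pair, fell from 371 and 383 CPM to 10.5 and 10.1 CPM and from 238 and 239 CPM to 8.75 and 7.52 CPM. Another chain of that family, Col4a6, rose to 15.1 and 13.8 CPM from 0.0786 and 0.0683 CPM. The microfibril chain Col6a3 rose from 20.2 and 16.6 CPM to 576 and 563 CPM (4.96), and the anchoring fibril chain Col7a1 was at 2.35.

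Matrix enzymes and matricellular proteins were changed in both directions or mostly higher, depending on the list. The crosslinking enzyme Lox rose from 103 and 97.6 CPM to 762 and 742 CPM and its relative Loxl2 fell from 168 and 159.8 CPM to 28.7 and 27.7 CPM, with 4 of 18 members of that list higher and 3 lower. Of 7 tested small leucine-rich proteoglycans 4 were higher and 2 lower, and Dcn, decorin, had the widest change at 0.707 and 0.751 CPM in wild type and 1237 and 1157 CPM in knockout (10.67 ± 0.13). Of 18 matricellular genes 10 were higher and 5 lower, with Thbs1, thrombospondin, from 42.7 and 40.04 CPM to 1504 and 1482 CPM. Spp1, osteopontin, was at 4.54, periostin, Postn, at 5.15 and fibulin Fbln1 at -7.77. Of 14 tested metalloproteinases and inhibitors 10 were at least 2-fold higher, led by the gelatinase Mmp9 at 7.15, and 2 were lower by less than 2-fold, with the inhibitors Timp1 and Timp3 at 3.10 and 2.75.

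**Figure D3:**
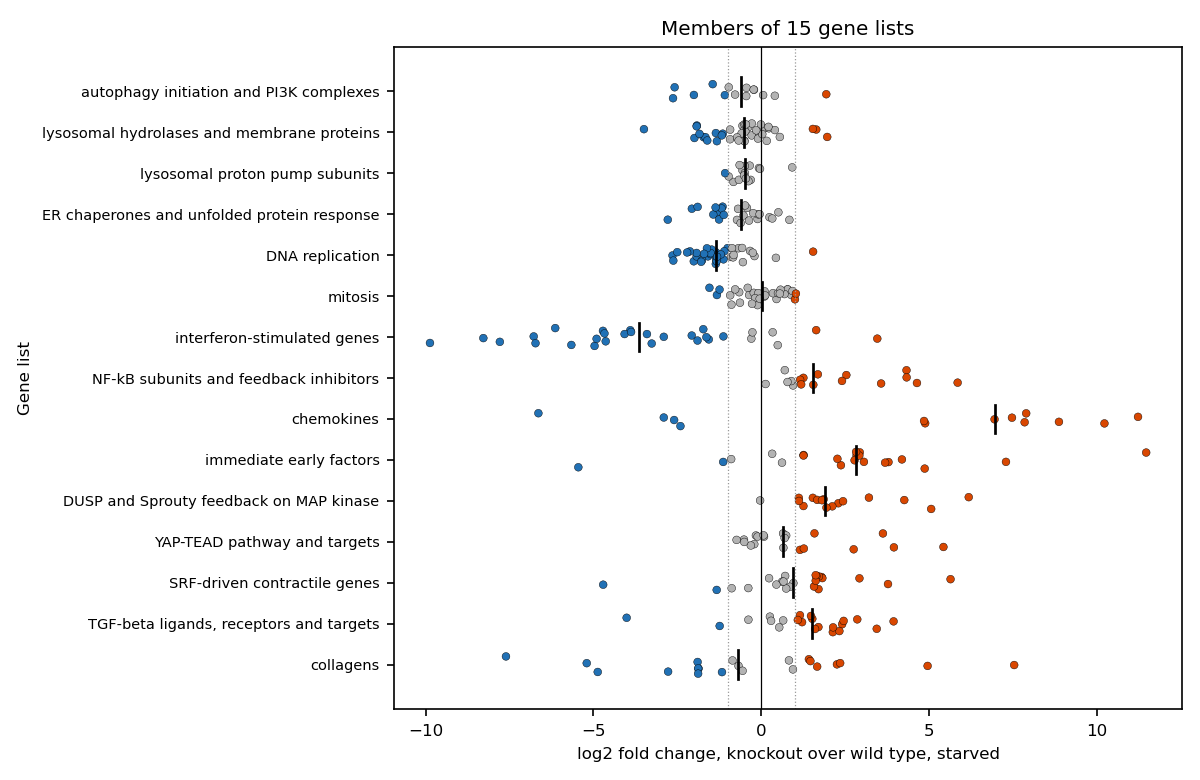
log2 fold change (knockout over wild type, starved) of every tested member of 15 gene lists, coloured orange where at least 2-fold higher and called, blue where at least 2-fold lower and called and grey otherwise; the vertical bar is the list's median and dotted lines mark 2-fold. Interferon-stimulated and DNA replication genes lie to the left, NF-kB, immediate early and DUSP genes to the right, and collagens and chemokines on both sides.

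Interferon-stimulated genes fell together. Of 30 tested members 24 were at least 2-fold lower and 2 higher, with a median of -3.64. Irf7, the factor that amplifies the interferon response, fell from 33.3 and 36.5 CPM to 0.396 and 0.595 CPM (-6.13 ± 0.19). The ubiquitin-like modifier Isg15 fell from 15.9 and 16.6 CPM to 0.119 and 0.1699 CPM, and the tether of budding viruses Bst2 from 48.7 and 57.3 CPM to 1.27 and 3.06 CPM. Oasl2, Usp18 and Parp14 were at -5.65, -4.07 and -3.88. These genes were low in knockout in rich medium as well: Isg15 was at 75.9 and 78.9 CPM in wild type and 0.995 and 0.318 CPM in knockout, and Irf7 at 52.6 and 49.2 CPM and 0.249 and 0.363 CPM.

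The Ifi200 cluster, interferon-inducible DNA sensors encoded side by side, went the opposite way, with 5 of 6 tested members higher and a median of 6.22. Aim2, the inflammasome sensor, rose from 0.236 and 0.0683 CPM to 103 and 104 CPM, Ifi204 from 3.81 and 2.97 CPM to 116 and 105 CPM and Ifi203 from 0.157 and 0.341 CPM to 40.7 and 30.9 CPM. Mndal was at 5.34. These genes are close paralogs, so reads may be split among them.

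DNA replication genes fell, while few mitosis genes were 2-fold apart. Of 38 replication genes 26 were at least 2-fold lower and 1 higher, with a median of -1.35, while of 32 mitosis genes 3 were lower and 2 higher, with a median of 0.026. Cdc6, which loads the replicative helicase, fell from 150.1 and 148 CPM to 24.6 and 23.1 CPM (-2.64 ± 0.073). The primase Prim1 fell from 144 and 139.9 CPM to 21.9 and 24.4 CPM. The flap nuclease Fen1 was at -2.21, Rpa2 at -2.12 and Mcm10 at -2.01. In rich medium Cdc6 overlapped between the genotypes, at 77.5 and 79.5 CPM in wild type and 72.9 and 84.2 CPM in knockout. Of the mitotic genes, Aurkb was at -1.54 and Kif11 at -1.32, and Ube2c and Kif23 were at 1.04 and 1.01.

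The cyclins that start the cell cycle went the other way. Ccnd1, cyclin D1, rose from 55.6 and 55.4 CPM to 632 and 640.1 CPM (3.52 ± 0.073), and Ccnd2 from 56.9 and 55.99 CPM to 364 and 348 CPM. Cdk6, their kinase partner, was at 2.46. Cdkn2a, the locus of the inhibitors p16 and Arf, fell from 138 and 146 CPM to 8.83 and 8.199 CPM (-4.06 ± 0.086), and it was as far apart in rich medium, at 141 and 144 CPM and 6.96 and 8.72 CPM. Of 13 members of this list 5 were higher and 3 lower.

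The list of p53 targets, which also holds Trp53, the gene of p53 itself, was split with the larger share higher. Of its 18 members 10 were higher and 4 lower, and Trp53 was among the 4 at least 2-fold lower. The polo-like kinase Plk2 rose from 61.5 and 63.4 CPM to 599 and 611 CPM, and the death receptor Fas from 2.16 and 2.39 CPM to 52.2 and 55.4 CPM. Eda2r and Phlda3 were at 2.33 and 2.04. Pmaip1, the BH3 protein Noxa, was at 0 in both knockout libraries and at 30.9 and 29.7 CPM in wild type, and Perp, a membrane protein of cell death and adhesion, had 1 knockout count, a wild-type to knockout ratio of 2433-fold with a 95% exact interval of 436 to 96125.

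Metabolic genes were nearer to the background. Of 22 glycolysis genes 3 were higher and 5 lower: hexokinase Hk2 was at 61.1 and 60.1 CPM and 240.4 and 244 CPM, the glucose carrier Slc2a1 at 1.54 and the phosphofructokinases Pfkl and Pfkm at -1.49 and -1.44. Of 6 tested MondoA genes, which sense glucose phosphate, the arrestin-like Arrdc3 was higher at 1.05 and Arrdc2 lower at -1.60. Of 23 tested cholesterol genes 5 were higher and 2 lower. Of 14 fatty acid genes 3 were higher and 1 lower, with the desaturases Scd2 and Fads2 at 1.93 and 2.05.

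Of 20 NRF2 antioxidant genes 7 were higher and 1 lower, with a median of 0.62. Sulfiredoxin, Srxn1, rose from 25.5 and 25.6 CPM to 164 and 163 CPM, and the ferritin chain Fth1 from 495 and 549 CPM to 1504 and 1333 CPM. Transketolase, Tkt, fell from 481 and 498 CPM to 142 and 144 CPM. Of 18 tested hypoxia targets 3 were higher and 6 lower, with Hif1a itself at 1.61, Vegfa at 1.58 and the collagen hydroxylase P4ha1 at -1.11. In rich medium 13 of these 18 lay higher and 4 lower in knockout without overlap, beside 33.0% and 36.8% of all genes.

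Insulin-like growth factor genes had 7 of 13 tested members higher and 2 lower. Grb10, an imprinted adaptor that restrains the insulin and IGF receptors, fell from 575 and 549 CPM to 2.26 and 1.23 CPM (-8.31 ± 0.12). Igfbp4, a binding protein for IGF, rose from 24.7 and 22.3 CPM to 1109 and 1088 CPM, and Pappa, the protease that cuts it, from 2.16 and 1.23 CPM to 59.8 and 57.99 CPM. Krüppel-like factors gave 5 of 13 higher and 3 lower, with Klf4 at 2.94, Klf10 at 2.92 and Klf12 at -6.14. Of 16 tested clock genes 6 were higher and 2 lower, with Bhlhe40, a repressor of the clock, from 9.27 and 6.28 CPM to 160.2 and 159 CPM, Nr1d1 at 2.94, Per2 at 2.19 and Cry1 at -1.05.

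**Figure D4:**
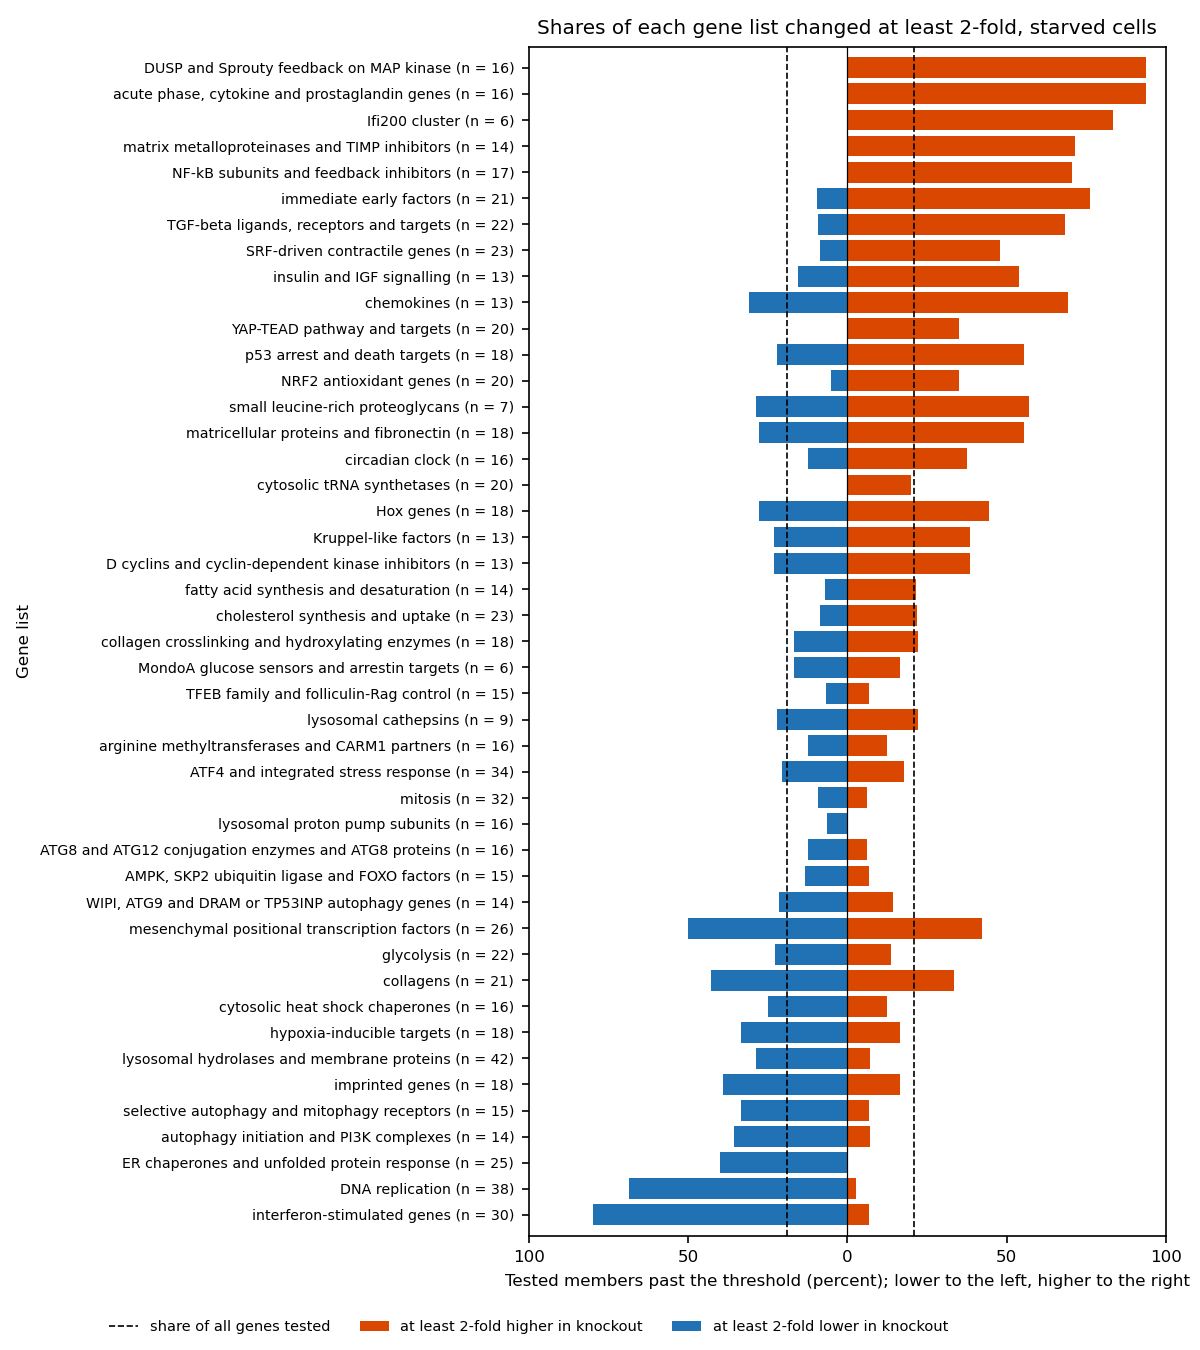
Share of the tested members of each gene list described in the text other than cell type markers and X inactivation genes, in percent, that were at least 2-fold higher (orange, to the right) or lower (blue, to the left) in starved knockout cells, with n the tested members; dashed lines mark the shares over all 13396 genes, 20.8% higher and 18.9% lower. Interferon-stimulated and DNA replication genes have the largest lower shares of the lists plotted, and DUSP and cytokine genes the largest higher shares.

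Genes that mark where in the body a fibroblast comes from separated the genotypes widely. Of 39 Hox genes 18 were tested, and 8 were higher and 5 lower. Hoxb2 and Hoxb3 had 0 wild-type counts and 8.67 and 9.81 CPM and 13.3 and 14.2 CPM in knockout, while Hoxa11 and Hoxd13, posterior and distal limb genes, had 8.92 and 10.6 CPM and 7.31 and 8.98 CPM in wild type and 0 in knockout. Of 26 tested positional factors outside the Hox clusters 11 were higher and 13 lower. Pitx1, a hindlimb factor, fell from 25.9 and 27.3 CPM to 0.0396 and 0 CPM, and Foxf1, a factor of gut and lung mesenchyme, rose from 0.786 and 0.683 CPM to 73.8 and 81.8 CPM. Osr1 was at 4.28, Tbx3 at 5.38, Lhx9 at -6.43 and Prrx1 at 2.98. These values are as far apart in rich medium, as the plot of positional and lineage genes shows, with Pitx1 at 45.7 and 52.3 CPM in wild type and 0 in knockout there.

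**Figure D5:**
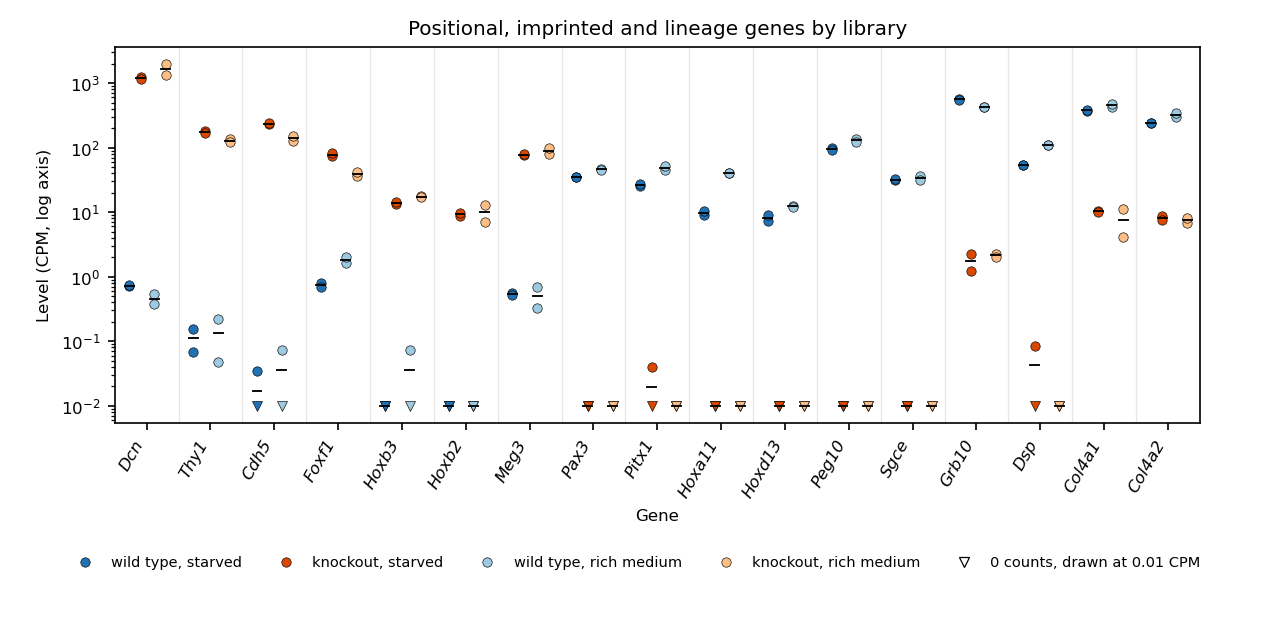
Level in CPM on a log axis of 17 positional, imprinted, matrix and lineage genes, with a point for each library, a bar at the mean of each pair and triangles for libraries with 0 counts. Each gene keeps the same order of the genotypes in starved and in rich medium.

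Imprinted genes, of which only the maternal or the paternal copy is normally read, had 3 of 18 tested members higher and 7 lower. Besides Peg10, Sgce and Grb10, the growth factor Igf2 was at -3.68 and the zinc-finger factor Plagl1 at -3.19, and the maternal RNA Meg3 rose from 0.5501 and 0.512 CPM to 76.6 and 79.5 CPM.

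Markers of the labelled cell type, the fibroblast, were uneven. The mesenchymal filament Vim was at 2471 and 2725 CPM in wild type and 2249.9 and 2118 CPM in knockout. The collagen Col1a2 was at 798 and 850.2 CPM in wild type and 1587 and 1592 CPM in knockout. Of 12 fibroblast markers 7 were higher and 2 lower. Lum had 0 wild-type and 47 knockout counts over each pair, and Fap 35 and 0. Thy1, a surface protein used to sort fibroblasts, was at 0.157 and 0.0683 CPM in wild type and 178 and 166 CPM in knockout, and the receptor Pdgfra at 3.85 and 3.11 CPM and 33.6 and 31.1 CPM. In bulk RNA, fewer cells of a type and less RNA per cell cannot be told apart.

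Markers of other cell types were scattered. The endothelial cadherin Cdh5 had 1 wild-type count and 234 and 237 CPM in knockout, while Tie1, Emcn, Erg and Sox17 had 0 counts in all 4 libraries and Kdr was lower in knockout, at 3.42 and 4.44 CPM and 0.0792 and 0.08497 CPM. The 4 tested endothelial markers of 12, 2 higher and 2 lower, summed to 6.52 and 8.74 CPM in wild type and to 240.2 and 243.1 CPM in knockout. Of 12 epithelial markers 5 were tested, 2 higher and 3 lower, with Dsp, desmoplakin, at 53.9 and 53.4 CPM and 0 and 0.08497 CPM and sums of 70.1 and 71.7 CPM in wild type and 54.3 and 49.8 CPM in knockout. Of 12 neural markers 5 were tested and 4 were higher, summing to 232 and 224 CPM in wild type and 775 and 766 CPM in knockout, with Snap25 at 0 in wild type and Gfap, Sox2 and Syt1 at 0 in all 4. Of 12 cartilage and bone markers 4 were tested, 2 higher and 2 lower, summing to 32.2 and 33.3 CPM and to 269.9 and 267 CPM, with Sox9 from 2.48 and 3.24 CPM to 146 and 139 CPM. Pax3 was the only tested member of 12 skeletal muscle markers, and the 3 tested of 12 adipocyte markers, 1 higher and 2 lower, summed to 14.7 and 13.3 CPM in wild type and 14.7 and 14.8 CPM in knockout. The part of other cells in the results above was not tested.

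Of the 2785 genes at least 2-fold higher in starved knockout cells, 2082 (74.8%) were also higher in both rich knockout libraries than in both rich wild-type libraries, and 156 (5.60%) were the other way round. Of the 2527 lower genes, 1994 (78.9%) were lower in rich medium too and 93 (3.68%) higher. Over all tested genes 33.0% lay higher without overlap and 36.8% lower in rich medium. The rich libraries are separate from the starved ones. Levels in the 2 media share the genotypes and any other difference between the 2 cell populations, which cannot be told apart here.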

How the data were processed

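RNA sequencing counts from 8 libraries of mouse embryonic fibroblasts were used, and 4 of them, the starved wild-type and knockout pairs, carry the comparison. The authors deposited raw counts per transcript. Per the submitters' processing notes, TopHat2 2.0.9 and bedtools were used with the genome build mm9. Counting settings and strand use are not given in those sources. The table held 31055 transcripts of 23366 gene symbols, and for each symbol the row with the highest total over the 8 libraries was kept. Of 3118 symbols with several rows and at least 100 counts, the lowest row held at least 90% of the highest in 72.9%, and reads that such rows may share cannot be assigned to one of them. Columns not mapped to a sample numbered 0.

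Counts were tested with edgeR 4.0.16 (R 4.3.3): TMM scaling, filterByExpr, a quasi-likelihood F test on the 4 starved libraries with 2 residual degrees of freedom, and Benjamini-Hochberg adjustment over 13396 genes. CPM values use the scaled library sizes, and those of the rich libraries the scaling of all 8. The biological coefficient of variation was 5.17% in the 4 libraries and 18.5% in all 8. The close replicates of the 4 were known when it was decided to fit them alone. The starved replicates differed by more than sampling noise (chi-square per degree of freedom 9.07 and 4.96) and were counted as separate samples. DESeq2 1.42.0, limma-voom (limma 3.58.1), other scalings, filters and transcript choices, leaving out replicates and a replicate block were the alternatives. For genes at 0 in a group, a fold is a bound against 3 counts over the pair; these bounds and the 95% intervals cover counting error only. The test script was checked on simulated counts.

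The genes named were Carm1, sex-linked genes, the 10 largest rises and falls among genes past the test, without overlap and at 5 CPM or more in both libraries of a group (no predicted symbols), in each list up to 6 members past the test with the largest change and a mean of 5 CPM or more in a group, and any member of the autophagy, lysosome, TFEB, AMPK and methyltransferase lists. Atf4, Trp53, Vim, Col1a2, Kdr and other cell type markers, those at or near 0 included, were named outside this rule, after their values were seen. The lists and the comparison itself were chosen with earlier results of these data known. Promoter sequences are RefSeq's, from 250 bases before to 50 after the start, of build GRCm38.p6, which is not the build of the counts, and were matched by gene symbol. The 4 chromatin libraries were not analysed here. Some genes that the rule names are not reported here.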

Additional observations from a re-analysis of the deposited data

Results flagged for a closer look

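The genotype effect differed between starved and rich medium in edgeR's test of that difference over all 8 RNA libraries for 13 of the genes it was read for, which were the 10 largest rises, the 10 largest falls and the autophagy genes changed by at least 2-fold. The autophagy genes were added after their values were seen, and they were picked by their starved effect, which is part of the tested difference. Over all 13882 genes 13.3% passed. The autophagy genes 9430023L20Rik, Atg2a, Dram1, Tmem41b, Atg7, Map1lc3a, Optn, Pink1 and Ncoa4 did not pass (adjusted p from 0.0792 to 0.641). Of the 10 rises and 10 falls only Angptl4 and Epb4.1 passed. Negative values mean that knockout lay lower, relative to wild type, after starvation than in rich medium.

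Of the autophagy starters, Atg13 differed by -2.14 ± 0.34 on the log2 scale (SE; adjusted p = 0.00902), Atg14 by -2.10 ± 0.30 (adjusted p = 0.006496), Ulk1 by -1.76 ± 0.33 (adjusted p = 0.01599) and Pik3c3 by -1.54 ± 0.19 (adjusted p = 0.00394). Bcl2 differed in the other direction, by 2.14 ± 0.30 (adjusted p = 0.00571). Wdr45 differed by -1.52 ± 0.20 (adjusted p = 0.00469).

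The cargo receptor Nbr1 differed by -1.60 ± 0.19 (adjusted p = 0.00333), Calcoco1 by -1.49 ± 0.22 (adjusted p = 0.00687) and Bnip3 by -3.78 ± 0.43 (adjusted p = 0.003103). Map1lc3b differed by -1.18 ± 0.20 (adjusted p = 0.01197) and Atg9b by -1.72 ± 0.39 (adjusted p = 0.0299). Both of these calls were lost with the replicate block, at adjusted p = 0.0505 and 0.0838. Atg9b was higher in knockout in both media.

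Of the genes with the largest changes, Angptl4, a regulator of lipoprotein lipase, differed by 5.66 ± 1.05 (adjusted p = 0.0206), with 0 starved wild-type counts. Epb4.1, a membrane skeleton protein, differed by -5.68 ± 0.80 (adjusted p = 0.00882), with 0 starved knockout counts. With a group at 0 the size of these fitted values depends on the prior count and is no bound.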

How the results depend on the processing

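The counts of changed genes, 5442 higher and 5596 lower in the main fit, depended on the fit. That of all 8 libraries gave 3864 genes higher and 3722 lower among 13882 tested. A test of a minimum change of 1.5-fold gave 3349 higher and 3273 lower. The counts at 2-fold moved less, except that a filter of 5 CPM in 2 libraries left 1611 lower, with fewer genes tested. Leaving out 1 starved library gave 5027 to 5426 genes higher and 5236 to 5495 lower, 2714 to 2888 and 2456 to 2634 at 2-fold, and a log2 fold change of Carm1 from -1.65 to -1.53. A pair left with 1 library is assumed to vary like the other. Scaling by total counts shifted the median of all genes by -0.12, turned the medians near 0 of the cargo receptors and mitosis genes negative, and small changes are to be read relative to that.

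With the replicate block the starved comparison gave 5374 genes higher and 5502 lower, and 2754 and 2494 at 2-fold, and it changed the call of 1 named gene. The labels give same-numbered libraries no shared origin, and their deviations from the group means had a correlation of 0.016 across genes, so the numbers were not taken to pair them. For the difference between media the block gave 532 higher and 265 lower, DESeq2 gave 1569 and 1311, and leaving out a rich knockout library gave 3735 to 4575 higher and 3305 to 3445 lower. The cause was not tested.

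Lamp2 turned to -0.356 with the median transcript, and Wdfy3, near 0 in the fit of 4 libraries, lay at 0.18 and -0.17 without wild-type starved replicate 1 and 2. The difference between media of Atg2a, which did not pass the test, lay at -0.82 and 0.38 without rich knockout replicate 1 and 2. Among the named genes 47 lost their call in the fit of all 8 libraries and 71 under the minimum change of 1.5-fold.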
